A study of Mus musculus with 2 samples.

Results

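The genes described here are 38 that act at or just below the T cell antigen receptor: 7 kinases, 8 adaptors, 6 exchange factors or phospholipases, 2 proteins of the NF-kB branch, 3 NFAT transcription factors, 5 phosphatases, 2 ubiquitin ligases, 2 diacylglycerol kinases and 3 surface receptors that tune the signal. They form a list of gene names, and all 38 were found among the 19837 genes of the files. The RNA came from spleen T cells of female mice of the C57/BL6N strain. Remimazolam, a short-acting benzodiazepine, was given at 6 mg/kg and spleens were taken 4 h or 8 h later. The third group was given saline and is labelled 0 h. With no time-matched saline pool, the drug cannot be told apart from the time since injection. The cells of the 3 mice of each group were pooled under 1 sample tag and read in a single BD Rhapsody capture, so each treatment is 1 pool without a replicate.

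When the receptor binds its antigen, the kinase Lck, held in check by Csk and released by the CD45 phosphatase, phosphorylates the receptor chains. Zap70 docks there and phosphorylates the scaffold Lat and its partner SLP-76, encoded by Lcp2. Phospholipase C-gamma 1 is then recruited and makes diacylglycerol and a calcium signal, which lead through Rasgrp1 to Ras, through protein kinase C theta, Bcl10 and Malt1 to NF-kB, and through calcineurin to NFAT. Cbl ligases, the phosphatases, the diacylglycerol kinases and receptors such as CD5 restrain the response. The questions put to the data were how far this RNA differed between kinds of T cell, and whether it moved after the drug.

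The T cells numbered 5044, 5139 and 5147 in the saline, 4 h and 8 h pools and held 13697348, 13973559 and 13962272 molecules. Levels are given as CPM, the molecules of a gene scaled to the molecules of all genes in the same cells, and 3 molecules in a pool correspond to 0.215 to 0.219 CPM. Over the 3 pools a member was counted between 833 times (Vav3) and 73026 times (Ptprc). Cells were sorted into exclusive gates by the lineage genes of which they held a molecule. The gates are Foxp3+ cells, CD4 cells with or without S100a4, CD8 cells with or without Ccl5, cells with the innate-like genes Zbtb16 or Klrb1c, and cells with the delta receptor chain gene Trdc. The remaining T cells held both CD4 and CD8 genes (5.10% to 5.55% of T cells) or neither (13.4% to 13.7%). They are in none of these gates but count among all T cells. Marker lists that did not choose these cells differed between gates. Regulatory genes other than Foxp3 summed to 2330 to 2505 CPM in Foxp3+ cells, against 124 to 165 CPM in S100a4- CD4 cells. Memory genes summed to 2824 to 3517 CPM in S100a4+ CD4 cells and 1286 to 1397 CPM in Ccl5+ CD8 cells, against 361 to 385 CPM in S100a4- CD4 cells and 296 to 310 CPM in Ccl5- CD8 cells. Naive genes summed to 371 to 681 CPM in S100a4+ CD4 cells, against 2170 to 2218 CPM in S100a4- CD4 cells. In Ccl5+ CD8 cells they summed to 2045 to 2174 CPM, against 2452 to 2550 CPM in Ccl5- CD8 cells, a smaller difference than in the CD4 split. Foxp3+ cells held 1364 to 1473 CPM of them. Gamma delta genes summed to 1339 to 1697 CPM in Trdc cells, against 11.4 to 14.6 CPM in S100a4- CD4 cells. In the tag calls 0 barcodes were listed more than once, and 1063 cells with more than 1 tag were left out.

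Molecules of some members were found in many more T cells than B cells, and those of others were not. With every cell reduced to 1000 molecules, a molecule of Lck was found in 56.3%, 55.9% and 56.1% of T cells of the saline, 4 h and 8 h pools, against 3.12%, 3.33% and 1.68% of B cells. Themis, a T cell lineage protein that modulates receptor signalling in thymocytes, was found in 13.4%, 14.0% and 13.6% of T cells and in 0 of 96, 120 and 119 B cells, which allows up to 3.77%, 3.03% and 3.05% of B cells with a molecule at this depth (upper end of the exact Clopper-Pearson 95% interval) and sets no limit on cells with the RNA. Whether the few Lck molecules in B cells are free RNA was not tested. Ptpn6, which encodes the phosphatase SHP-1 of both lineages, was found in fewer T cells, 17.5%, 17.1% and 18.8%, than B cells, 48 of 96, 55 of 120 and 68 of 119. Without the reduction the shares of T cells were 85.1%, 84.1% and 84.3% for Lck, 29.5%, 30.0% and 29.5% for Themis and 37.3%, 35.5% and 37.4% for Ptpn6. The median T cell held 2530, 2512 and 2514 molecules and the median B cell 2120, 2392 and 2043.

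The level of this signalling RNA in all T cells was close to equal in the 3 pools. With 1 pool per treatment there is no test between them. A ratio of CPM has a 95% interval that covers counting error only, and a ratio of at least 1.2 or at most 0.833 was counted. At 4 h against saline, 1 of the 38 members was counted as higher and 1 as lower, beside 9.20% of all 9492 genes with at least 100 molecules (6.21% higher and 2.99% lower). At 8 h against saline 1 member was higher and 0 were lower, beside 8.16% of 9470 genes (4.40% higher and 3.76% lower). At 8 h against 4 h 0 members were counted, beside 8.59% of 9500 genes (2.98% higher and 5.61% lower). The members' median log2 ratio was -0.004 at 4 h, 0.002 at 8 h and 0.002 for 8 h over 4 h, and that of all genes tested 0.015, -0.001 and -0.017. By this fold rule the members' shares were no higher than those of all genes. All 38 members also held at least 500 molecules over the pools compared, as did 6655 of the 9492 genes at 4 h. The share counted among those genes is not given, so the members are set beside genes that include less abundant ones.

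**Figure D1:**
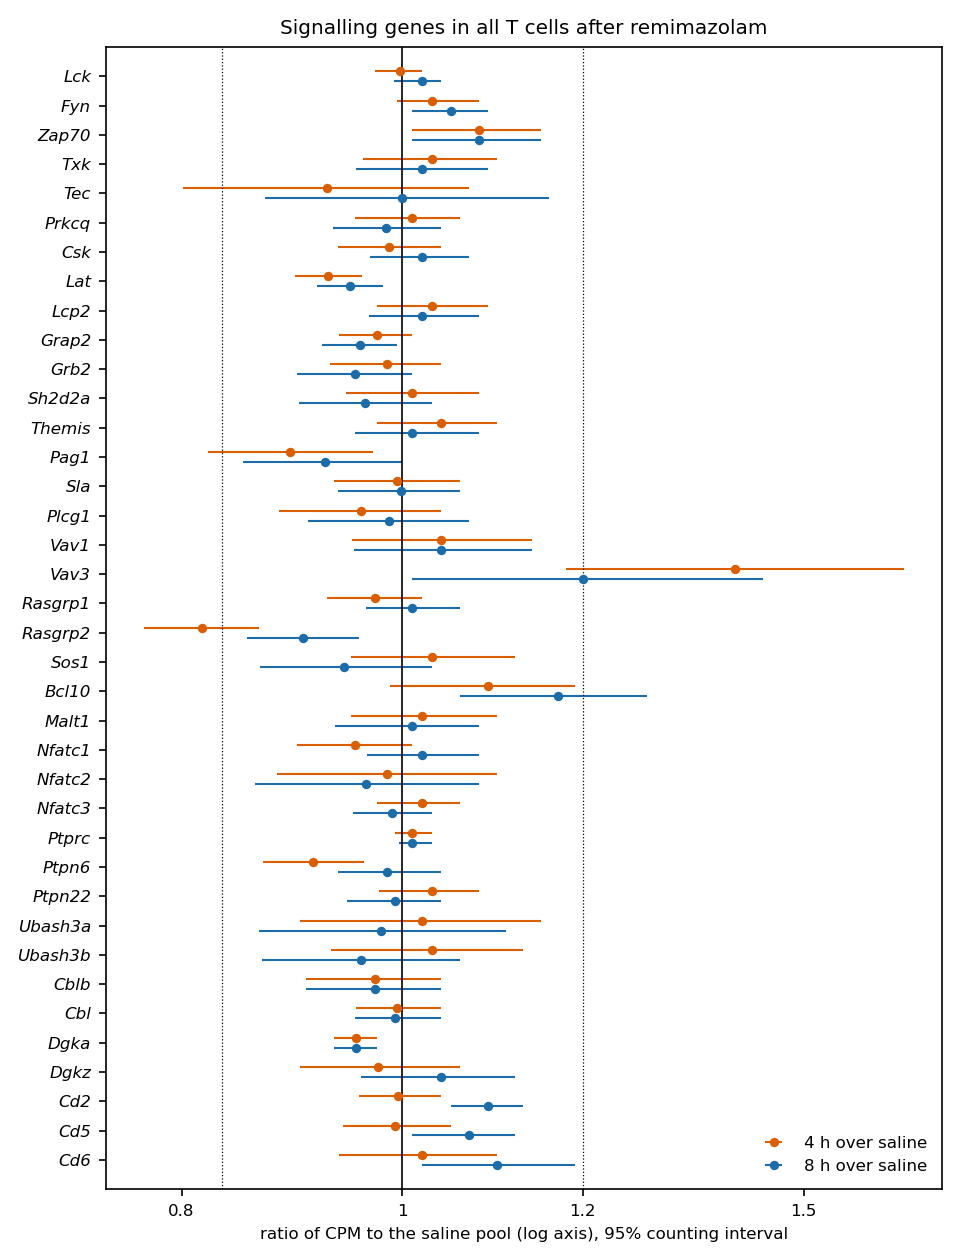
Ratio of CPM to the saline pool of the 38 members in all T cells, on a log axis, for the 4 h pool (orange) and the 8 h pool (blue), with 95% intervals for counting error and dotted lines at 0.833 and 1.2. Most points lie close to 1, Vav3 lies to the right at 1.4 and 1.2, and Rasgrp2 to the left at 0.817 and 0.904.

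Vav3, a guanine nucleotide exchange factor (chr3:109340653-109685698, plus strand, GRCm38 with GENCODE M21), was the member with fewest molecules. It stood at 16.6, 23.3 and 20.1 CPM in the saline, 4 h and 8 h pools, from 228, 325 and 280 molecules. The 4 h ratio was 1.4 (95% interval 1.18 to 1.66) and the 8 h ratio 1.2 (1.01 to 1.44), so both drug pools lay above saline and the second of them at the edge of the fold that was counted. Rasgrp2 (chr19:6399340-6415216, plus strand), which encodes an exchange factor that acts on Rap1 and links signals to integrin adhesion, stood at 186, 152 and 168 CPM. The 4 h ratio was 0.817 (0.770 to 0.865) and the 8 h ratio 0.904 (0.855 to 0.957), both below saline. With the mix of gates held fixed, the same number of members was counted at 4 h and none at 8 h.

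Within gates, the higher Vav3 was seen in S100a4- CD4 cells, where it stood at 15.3, 24.2 and 23.5 CPM in the saline, 4 h and 8 h pools, with ratios of 1.59 (1.15 to 2.20) and 1.54 (1.12 to 2.12). In Ccl5- CD8 cells it stood at 13.4, 16.3 and 11.8 CPM, and neither ratio, 1.22 (0.865 to 1.71) or 0.879 (0.602 to 1.28), had an interval without 1. Rasgrp2 was lower at 4 h in S100a4- CD4 cells, at 172 against 212 CPM in saline (ratio 0.811, 0.735 to 0.896), and in Ccl5- CD8 cells, at 146 against 184 CPM (0.792, 0.717 to 0.874). In Ccl5+ CD8 cells it stood at 164 against 150 CPM (1.09, 0.859 to 1.39), an interval that includes 1 and overlaps those of both other gates. The difference between gates was not tested. Bcl10, the adaptor between protein kinase C theta and Malt1, stood at 61.6, 66.9 and 72.0 CPM in all T cells, and its ratio at 8 h was 1.17 (1.06 to 1.28), short of the fold that was counted. In S100a4- CD4 cells Bcl10 stood at 57.8, 69.3 and 68.6 CPM, with ratios of 1.2 (1.01 to 1.42) and 1.19 (1.00 to 1.41).

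**Figure D2:**
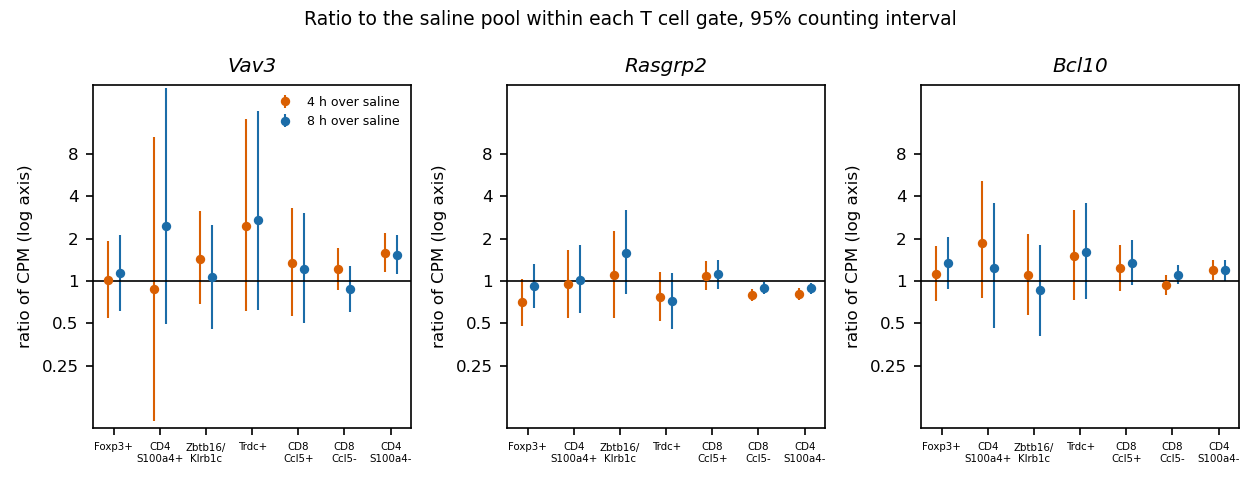
Ratio of CPM to the saline pool for Vav3, Rasgrp2 and Bcl10 within each T cell gate, on a log axis, for the 4 h pool (orange) and the 8 h pool (blue), with 95% intervals for counting error. Intervals are narrow in the Ccl5- CD8 and S100a4- CD4 gates and wide in the small gates, where a Vav3 interval reaches 23.8.

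The kinases that start the signal hardly differed between pools. Lck stood at 837, 835 and 851 CPM in the saline, 4 h and 8 h pools, Fyn at 371, 384 and 388, Zap70 at 127, 137 and 137, and Csk, the kinase that inhibits Lck, at 206, 203 and 210. The Zap70 ratio was 1.08 (1.01 to 1.15) at both times. Lat stood at 505, 468 and 479 CPM, with ratios of 0.928 (0.897 to 0.960) and 0.948 (0.917 to 0.981), a small difference that counting error does not cover. Lcp2 stood at 193, 198 and 197 CPM, Plcg1 at 84.8, 81.4 and 83.7, Prkcq, the gene of protein kinase C theta, at 197, 198 and 194, and Themis at 150, 155 and 152.

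No member that restrains the signal, and neither Ptprc nor Cd2, passed the fold that was counted, though some lay farther from 1 than the kinases above. The adaptor gene Pag1 stood at 86.3, 77.1 and 79.8 CPM in the saline, 4 h and 8 h pools. Its ratios were 0.893 (0.822 to 0.971) and 0.925 (0.851 to 1.00). Dgka, which encodes the kinase that removes diacylglycerol, stood at 1192, 1137 and 1137 CPM in the saline, 4 h and 8 h pools, with a ratio of 0.954 (0.933 to 0.975) at both times. Ptpn6 stood at 224, 205 and 220 CPM, with ratios of 0.914 (0.869 to 0.962) and 0.985 (0.937 to 1.04). Cd5, Cd6 and Cd2, the surface receptor genes, had ratios of 0.993, 1.02 and 0.996 at 4 h and of 1.07 (1.01 to 1.12), 1.1 (1.02 to 1.19) and 1.09 (1.05 to 1.13) at 8 h. Ptprc, the CD45 gene, stood at 1739, 1758 and 1765 CPM, Cblb at 116, 113 and 113 and Ptpn22 at 231, 237 and 230. CD45 and CD5 protein were named in the labels' account of the sort, so the level of Ptprc and Cd5 RNA is one of cells that passed it. In all, an interval without 1 was found for 2 of the 38 members above and 5 below saline at 4 h. At 8 h it was found for 7 above and 4 below, beside 13.4% of all genes at 4 h and 10.7% at 8 h. By this rule the members' shares were above those of all genes. Intervals narrow as molecules rise, and the members were not set beside genes of equal count.

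Few other genes of the pathway were counted over time. Of 65 of 66 tested, 3 were counted as higher and 0 as lower at 4 h, and 1 and 1 at 8 h, beside 9.20% and 8.16% of all genes. The counted genes were feedback inhibitors: Socs3 at 59.0 against 47.2 CPM at 4 h (ratio 1.25, 1.13 to 1.39), Spry1 at 5.87 against 4.82 CPM (1.22, 0.870 to 1.71) and Spry2 at 6.66 against 5.11 CPM (1.3, 0.945 to 1.8). At 8 h Spry1 stood at 7.02 CPM (1.46, 1.06 to 2.02) and Spry2 at 3.37 CPM (0.659, 0.445 to 0.967), against the same saline levels. Of 14 genes that the signal induces, 12 were tested. At 4 h 0 were higher and 2 lower, beside 6.21% and 2.99% of all genes. At 8 h 2 were higher and 4 lower, beside 4.40% and 3.76% of all genes, so the induced genes were counted at a larger share than all genes. Egr3, an early target of the calcium signal, stood at 33.8 against 44.1 CPM at 4 h (0.768, 0.679 to 0.867) and at 35.0 against 44.1 CPM at 8 h (0.794, 0.704 to 0.896). Egr2 stood at 16.5 against 23.2 CPM at 8 h (0.710, 0.596 to 0.843). Il2 was counted as lower at both times and Irf4 as higher at 8 h with intervals that included 1, and Nr4a3 (0.818, 0.691 to 0.967) was lower and Tnfrsf9 (1.23, 1.07 to 1.42) higher at 8 h.

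Differences between kinds of T cell were tested with edgeR's quasi-likelihood test on molecules summed per pool and gate, with the pool as a block (n = 3 pools), and p-values were adjusted by Benjamini-Hochberg over the 8353 genes tested. The 3 pools differ in treatment, and the block takes up what the gates of a pool share. Since nothing replicates a treatment, p-values cover only the spread of gate differences between these pools. Except for the later split by an Egr or Nr4a molecule, all gates were fitted together. SE and p-values of those contrasts rest on spread shared over all the gates, not only on the gates compared. An SE can thus be smaller than the spread of a gate difference between pools. In Trdc cells Txk stood at 90.4, 231 and 233 CPM in the saline, 4 h and 8 h pools. S100a4- CD4 cells held 119, 121 and 117 CPM, and the SE was 0.15. The contrasts with S100a4- CD4 cells share those cells, so they are not independent of each other. All 38 members passed the filter on low counts. With plain library sizes in place of TMM scaling, the share of all calls that were higher was 65.3% and not 54.9% in Foxp3+ cells, 35.2% and not 48.5% in Ccl5- CD8 cells, 51.4% and not 62.4% in Ccl5+ CD8 cells and 68.6% and not 56.4% in Trdc cells.

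**Figure D3:**
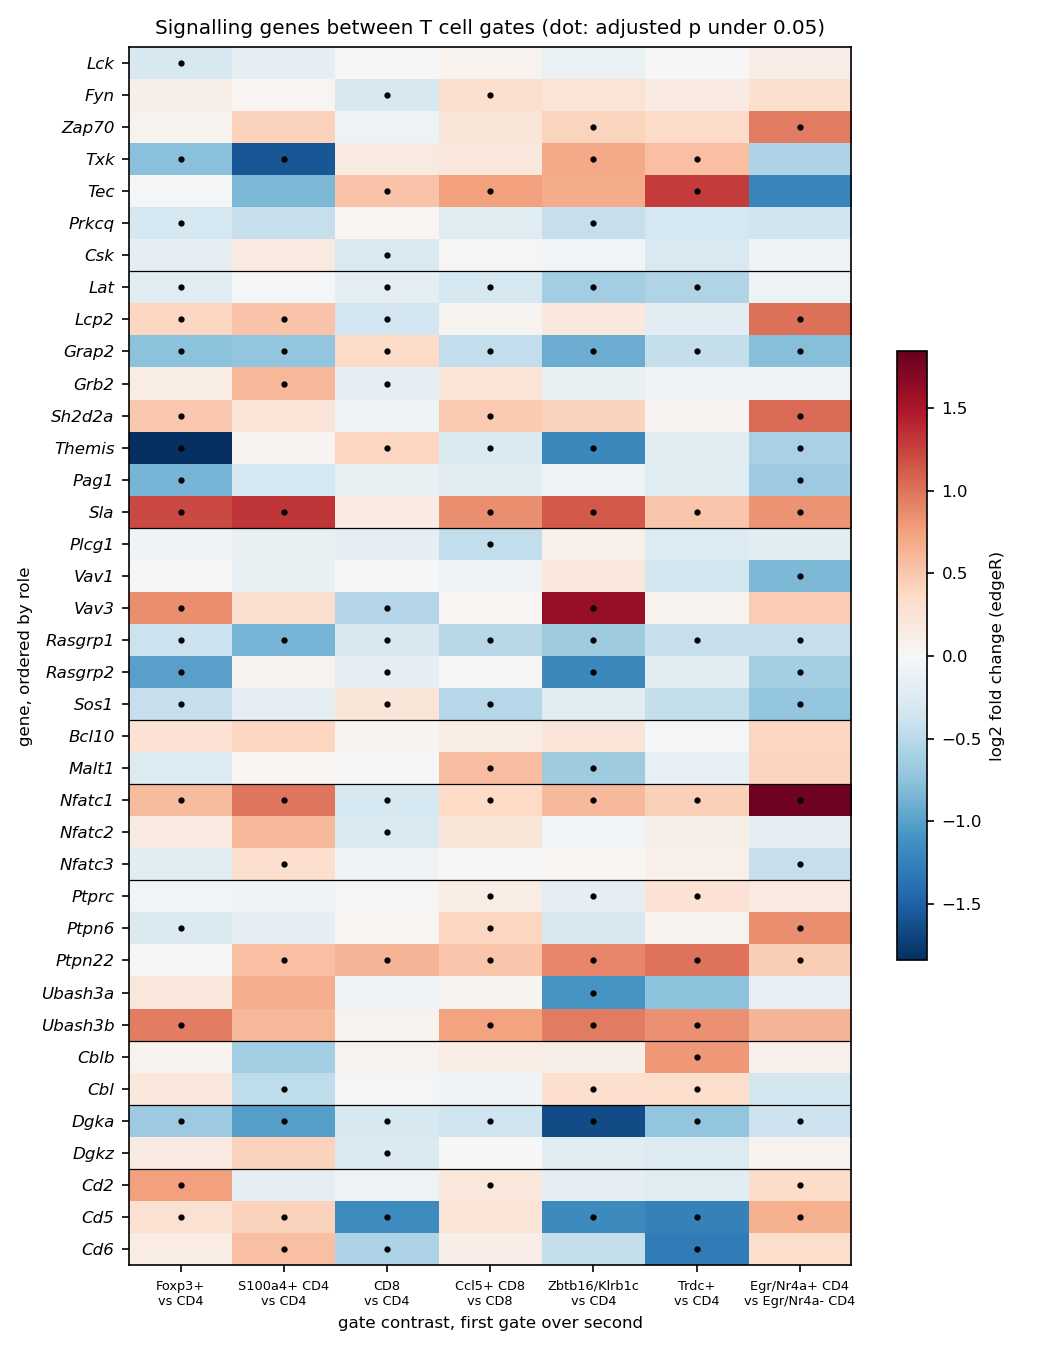
Log2 fold change (edgeR) of the 38 members, ordered by role, in 7 gate contrasts, first gate over second, with red for higher, blue for lower and a dot where the adjusted p was under 0.05. In the axis names, CD4 stands for S100a4- CD4 cells and CD8 for Ccl5- CD8 cells. The deepest blue fields are Themis in Foxp3+ cells at -1.84 and Dgka in cells with Zbtb16 or Klrb1c at -1.65, and the deepest red is Nfatc1 in cells with an Egr or Nr4a molecule at 1.79.

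Foxp3+ cells held less RNA of several members, both activating and restraining ones, than S100a4- CD4 cells and more of Sla, Ubash3b, Vav3 and Cd2. Of the 38 members 8 were higher and 12 lower, beside 21.0% of all genes (11.5% higher and 9.47% lower). With plain library sizes 9 were higher and 9 lower, without the top 3% of cells 9 and 8, and without the 4 h pool 8 and 8. The members' median log2 fold change was 0.001, against -0.011 for all genes. Themis (chr10:28668360-28883818, plus strand) stood at 43.8, 48.2 and 36.7 CPM in Foxp3+ cells of the saline, 4 h and 8 h pools, against 144, 149 and 148 CPM in S100a4- CD4 cells. The groups did not overlap, and the log2 fold change was -1.84 ± 0.15 (SE, adjusted p = 9.37e-16). Rasgrp2 stood at 114, 80.8 and 105 CPM in Foxp3+ cells, against 212, 172 and 188 CPM, a log2 fold change of -1.0 ± 0.12 (adjusted p = 2.40e-10). For both genes every Foxp3+ pool lay below every CD4 pool.

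Also lower in Foxp3+ cells were Pag1, the membrane adaptor that holds Csk (-0.86 ± 0.17), the Tec family kinase gene Txk (-0.77 ± 0.15), Grap2, which encodes the adaptor Gads that joins SLP-76 to Lat (-0.76 ± 0.09), and Dgka (-0.67 ± 0.06), all with adjusted p of 6.22e-05 or less. Lck was lower by a small margin, at 733, 747 and 732 CPM in Foxp3+ cells, against 868, 860 and 871 CPM (log2 fold change -0.29 ± 0.06, adjusted p = 7.97e-05). Zap70 did not pass the test, and Lat did (-0.21 ± 0.07, adjusted p = 0.0195) but not with plain library sizes (adjusted p = 0.112).

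Sla, which encodes the adaptor SLAP that promotes turnover of receptor chains, stood at 291, 259 and 278 CPM in Foxp3+ cells, against 118, 111 and 112 CPM in S100a4- CD4 cells (log2 fold change 1.21 ± 0.09, adjusted p = 1.35e-17). The Sla gene (chr15:66780819-66831829, minus strand) overlaps Tg on the opposite strand. Ubash3b, which encodes the phosphatase STS-1 that acts on Zap70, stood at 97.2, 99.4 and 105 CPM, against 50.5, 54.6 and 45.8 CPM (0.94 ± 0.16, adjusted p = 2.34e-06). The groups of both genes lay far apart. Vav3 was higher by 0.86 ± 0.22 on the log2 scale (adjusted p = 0.00236) and Cd2, the gene of an adhesion and costimulatory receptor, by 0.75 ± 0.07 (adjusted p = 3.06e-14). Nfatc1 was higher by 0.58 ± 0.11 and Sh2d2a, which encodes an Lck-binding adaptor, by 0.50 ± 0.11. Lcp2, of the activating side, stood at 305, 311 and 268 CPM, against 211, 214 and 219 CPM (0.39 ± 0.08, adjusted p = 2.46e-04). Of the 14 genes that the signal induces, 11 were higher in Foxp3+ cells and 0 lower, among them Tnfrsf9 at 204, 144 and 195 CPM, against 20.3, 11.3 and 25.5 CPM (log2 fold change 3.17 ± 0.18, adjusted p = 7.40e-23). Of 63 other pathway genes 12 were higher and 9 lower, with Rel, a NF-kB subunit (log2 fold change 1.19 ± 0.14), and Inpp5d, the lipid phosphatase SHIP-1 (0.78 ± 0.15), among the higher and Sit1 (-0.64 ± 0.16) and the phosphoinositide kinase gene Pik3cd (-0.53 ± 0.08) among the lower. Among the 20 members called, 15 were called in the same direction under each of 11 alternatives, and the others were Cd5, Lat, Prkcq, Ptpn6 and Sos1. Of the B cell list, Ighm RNA was 591 to 770 CPM in Foxp3+ cells, against 250 to 287 CPM in S100a4- CD4 cells, while Cd79a and Ms4a1, which the gates bar, were at 0. The whole B cell list summed to 627 to 802 CPM, against 259 to 293 CPM, and its part in the result was not tested.

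S100a4+ CD4 cells, a small gate of 28, 57 and 46 cells in the saline, 4 h and 8 h pools, held more Sla and Nfatc1 and less Txk, Dgka, Rasgrp1 and Grap2 than S100a4- CD4 cells. Of the members 8 were higher and 5 lower, beside 19.0% of all genes (10.8% higher and 8.12% lower), with a median log2 fold change of 0.040 against -0.029 for all genes. Txk stood at 63.0, 37.0 and 33.2 CPM in S100a4+ cells, against 119, 121 and 117 CPM (log2 fold change -1.57 ± 0.31, adjusted p = 9.24e-05). Dgka stood at 639, 808 and 631 CPM, against 1363, 1398 and 1347 CPM (-1.01 ± 0.09, adjusted p = 4.16e-14). Each S100a4+ pool lay below each S100a4- pool for both genes, but the Txk levels in S100a4+ cells rest on few molecules. In this gate 1 molecule corresponds to 8.99 CPM in the saline pool and 5.28 CPM in the 4 h pool. In the 8 h pool 6 molecules correspond to 33.2 CPM, the level of Txk there.

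In the same contrast Rasgrp1, the diacylglycerol-dependent activator of Ras, and Grap2 were lower (log2 fold changes -0.86 ± 0.17 and -0.73 ± 0.15), while Sla was higher by 1.32 ± 0.15 (adjusted p = 1.25e-10) and Nfatc1 by 0.99 ± 0.17 (adjusted p = 4.07e-06). Lcp2 (0.53 ± 0.14), Ptpn22, the gene of the phosphatase that acts on Lck and Zap70 (0.56 ± 0.15), Cd6 (0.56 ± 0.18) and Grb2, the adaptor that brings Sos1 to Lat (0.61 ± 0.14), passed the test as well. Without 1 pool, Lcp2 lost its call (adjusted p = 0.105 without 4 h), and so did Ptpn22 (0.249 without 8 h) and Cd6 (0.234 without 4 h and 0.124 without 8 h). Of the other pathway genes 8 of 63 were higher and 4 lower, with Ptpn7, a phosphatase of MAP kinases, at 405, 296 and 426 CPM against 165, 186 and 169 CPM (log2 fold change 1.04 ± 0.14). Of the 14 induced genes 3 were higher and 2 lower, among them Myc, the gene of a growth regulator, at 0, 5.28 and 33.2 CPM in S100a4+ cells, against 84.7, 66.8 and 70.9 CPM (log2 fold change -2.37 ± 0.44, adjusted p = 2.42e-05). These S100a4+ levels of Myc are those of 0, 1 and 6 molecules, so the size of the difference is poorly measured. A molecule of Il2ra, Ikzf2, Ctla4, Lrrc32 or Tnfrsf18, genes of regulatory T cells, was found in 39.3%, 42.1% and 45.7% of S100a4+ cells, against 15.7%, 16.3% and 17.7% of S100a4- cells. Without those cells, an alternative chosen after seeing the data, 6 members were called, Sla and Nfatc1 as higher and Txk, Dgka, Rasgrp1 and Grap2 as lower. Of the calls lost, Lcp2 (log2 fold change 0.55, adjusted p = 0.0660), Ptpn22 (0.60, adjusted p = 0.0565) and Cbl (-0.47) were no closer to 0 without those cells, Grb2 was at 0.48, and Cd5 (0.17), Cd6 (0.34) and Nfatc3 (0.18) were closer to 0. In that fit the median log2 fold change of all genes was -0.124. The natural killer T list (Cxcr6, Il2rb, Tbx21 and Klrb1c) summed to 594, 570 and 753 CPM in S100a4+ cells, against 110, 110 and 107 CPM in S100a4- cells, mostly from Il2rb, which the memory list also holds, while Klrb1c, which the gates bar, was at 0, and the part of such cells in the result was not tested. The S100a4+ cells were also deeper, with a median of 3193, 2802 and 3163 molecules, against 2426, 2372 and 2426, and the part of depth in the result was not tested.

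**Figure D4:**
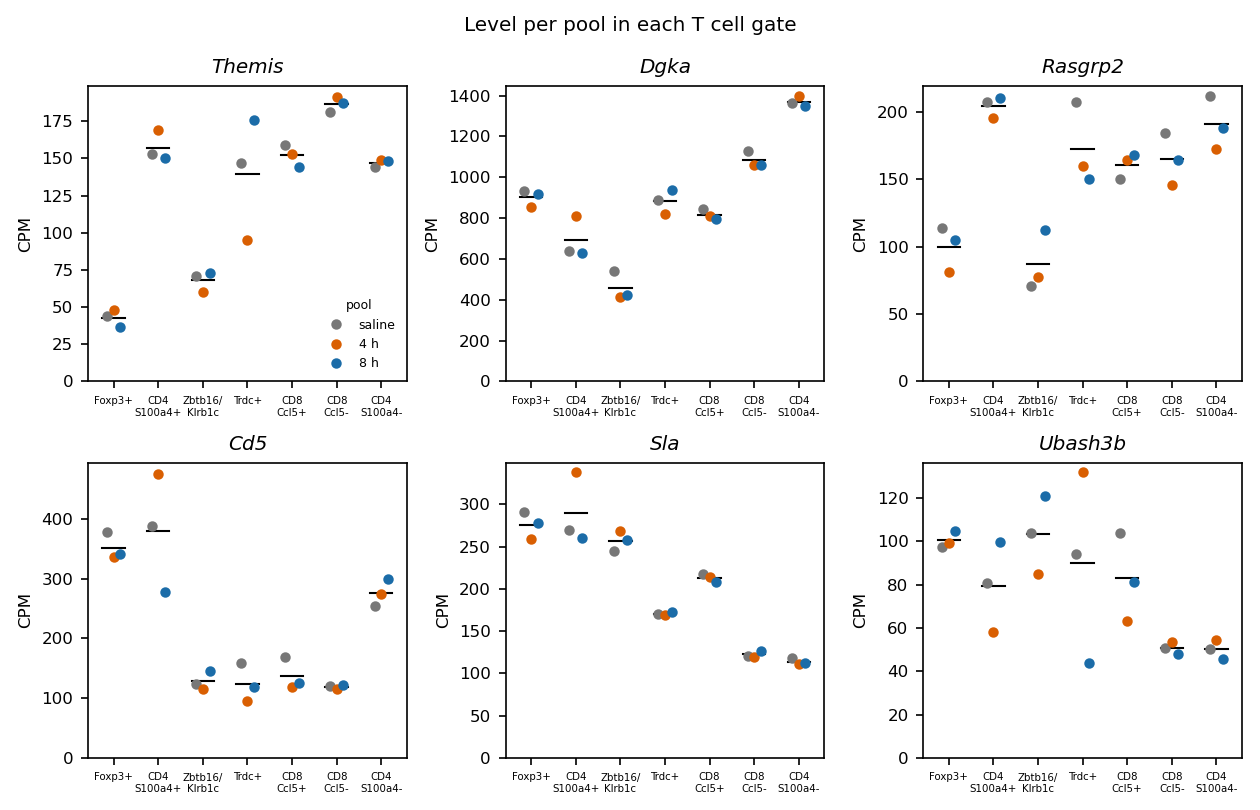
Level in CPM of Themis, Dgka, Rasgrp2, Cd5, Sla and Ubash3b in 7 T cell gates, with 1 point per pool (grey saline, orange 4 h, blue 8 h) and a line at their mean. Themis is lowest in Foxp3+ cells at 36.7 to 48.2 CPM, Dgka is lowest in Zbtb16 or Klrb1c cells at 413 to 542 CPM, and Cd5 lies between 95.3 and 168 CPM in the CD8, Zbtb16 or Klrb1c and Trdc gates.

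CD8 cells without Ccl5 held less Cd5, Cd6 and Vav3 than S100a4- CD4 cells and more Ptpn22 and Tec. Of the members 5 were higher and 14 lower, beside 24.1% of all genes (11.7% higher and 12.4% lower), with a median log2 fold change of -0.074 against -0.009 for all genes. Cd5 (chr19:10717116-10739002, minus strand), the gene of a receptor that dampens signalling, stood at 120, 116 and 122 CPM in Ccl5- CD8 cells, against 254, 274 and 300 CPM in S100a4- CD4 cells (log2 fold change -1.16 ± 0.07, adjusted p = 6.79e-22). Its relative Cd6 (chr19:10789341-10830058, minus strand) stood at 72.1, 75.0 and 68.6 CPM, against 104, 106 and 123 CPM (-0.57 ± 0.07, adjusted p = 1.87e-09). Ptpn22 stood at 254, 281 and 255 CPM, against 182, 168 and 181 CPM (0.62 ± 0.06, adjusted p = 4.89e-14). None of these 3 genes had overlapping groups.

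The Tec kinase gene Tec was higher in Ccl5- CD8 cells at 33.0, 26.9 and 29.9 CPM, against 20.0, 21.8 and 22.6 CPM (log2 fold change 0.53 ± 0.14, adjusted p = 0.00251, and 0.0736 without the saline pool). Vav3 was lower, at 13.4, 16.3 and 11.8 CPM, against 15.3, 24.2 and 23.5 CPM, with overlapping groups (-0.54 ± 0.16, adjusted p = 0.00786, and 0.244 without the 8 h pool). Themis and Grap2 were higher by 0.39 ± 0.06 and 0.35 ± 0.05, and Lcp2, Fyn, Csk, Rasgrp1 and Dgka were lower by small margins, between -0.35 and -0.28. Lck and Zap70 did not pass the test. Of 63 other pathway genes 6 were higher and 18 lower, and Trat1, which encodes an adaptor that steadies the receptor complex, stood at 61.4, 57.6 and 62.6 CPM, against 214, 193 and 208 CPM (log2 fold change -1.71 ± 0.08, adjusted p = 6.87e-27). Sit1, an inhibitory adaptor gene, was lower too (-0.69 ± 0.09), and Sla2, the close relative of Sla, was higher (0.67 ± 0.09). Of the 14 induced genes 2 were higher and 7 lower, among them the cytokine gene Tnf at 9.61, 18.1 and 13.0 CPM, against 31.4, 32.6 and 30.8 CPM (log2 fold change -1.17 ± 0.15). Of the 19 member calls 10 held under all 11 alternatives, among them those of Cd5, Cd6 and Ptpn22.

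Among CD8 cells, those with Ccl5 held more RNA of Sla, Tec, Ubash3b, Malt1 and Ptpn22 than those without. Of the members 11 were higher and 7 lower, beside 13.0% of all genes (8.12% higher and 4.88% lower), with a median log2 fold change of 0.095 against 0.004 for all genes. Sla stood at 218, 214 and 208 CPM in Ccl5+ cells, against 121, 119 and 127 CPM in Ccl5- cells (log2 fold change 0.85 ± 0.08, adjusted p = 6.48e-13). Malt1, the protease of the NF-kB branch, stood at 150, 144 and 139 CPM, against 101, 99.5 and 99.8 CPM (0.57 ± 0.10, adjusted p = 7.82e-06), while its partner Bcl10 did not pass the test. Both groups of pools were tight and apart for Sla and Malt1.

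Tec was higher by 0.75 ± 0.17 (adjusted p = 0.00105), Ubash3b by 0.74 ± 0.14 (adjusted p = 5.52e-05) and Ptpn22 by 0.51 ± 0.07 (adjusted p = 2.19e-08). Members lower in Ccl5+ cells were Rasgrp1 (-0.51 ± 0.09), Sos1, the exchange factor that Grb2 brings to Ras (-0.52 ± 0.13), Plcg1 (-0.46 ± 0.13), Grap2 (-0.45 ± 0.07) and Lat (-0.33 ± 0.07). The call of Sos1 was lost without the 4 h pool (adjusted p = 0.131) and that of Plcg1 without the saline pool (adjusted p = 0.323), and 11 of the 18 calls held under all alternatives. Of 63 other pathway genes 6 were higher and 9 lower, led by Spry2, a feedback inhibitor of Ras signalling, at 12.8, 14.5 and 9.04 CPM in Ccl5+ cells, against 0.209, 0.602 and 0.427 CPM (log2 fold change 4.70 ± 0.61, adjusted p = 1.64e-08). Of the 14 induced genes 1 was higher and 3 lower, with the early gene Egr1 at 64.1, 32.2 and 54.3 CPM in Ccl5+ cells, against 104, 94.5 and 130 CPM (log2 fold change -1.09 ± 0.22). Ccl5+ cells held a median of 3462 to 3526 molecules, against 2654 to 2685, and natural killer genes summed to 497, 426 and 650 CPM, against 133, 152 and 131 CPM, and the part of either in the result was not tested.

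Cells with Zbtb16 or Klrb1c, which mark innate-like T cells, held less Dgka, Themis, Rasgrp2 and Cd5 than S100a4- CD4 cells and more Vav3, Sla and Ptpn22. Of the members 8 were higher and 11 lower, beside 16.5% of all genes (9.07% higher and 7.39% lower), and 10 were higher and 8 lower with plain library sizes and with DESeq2. The median log2 fold change was -0.065, against -0.012 for all genes. Dgka (chr10:128720134-128744855, minus strand) stood at 542, 413 and 422 CPM, against 1363, 1398 and 1347 CPM in S100a4- CD4 cells (log2 fold change -1.65 ± 0.09, adjusted p = 4.21e-24). Vav3 stood at 56.6, 81.1 and 60.3 CPM, against 15.3, 24.2 and 23.5 CPM (1.60 ± 0.27, adjusted p = 3.90e-06). Each pool of the innate-like gate lay outside the range of the CD4 pools for both genes.

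Themis (-1.19 ± 0.19), Rasgrp2 (-1.18 ± 0.18), Cd5 (-1.17 ± 0.17), Grap2 (-0.92 ± 0.13), Rasgrp1 (-0.66 ± 0.14), Malt1 (-0.66 ± 0.21) and Lat (-0.64 ± 0.10) were lower in the innate-like gate. Ubash3a, the lymphoid relative of Ubash3b, stood at 23.6, 3.53 and 34.4 CPM, against 37.3, 37.0 and 43.2 CPM (-1.08 ± 0.38, adjusted p = 0.0398), and the call was lost without the 4 h pool, where the log2 fold change was -0.51 (adjusted p = 0.526). Higher were Sla (1.13 ± 0.13), Ubash3b (0.96 ± 0.23), Ptpn22 (0.90 ± 0.12), Txk (0.70 ± 0.16) and Nfatc1 (0.60 ± 0.15), with overlapping groups for Nfatc1. Malt1 lost its call without the 4 h or the 8 h pool, Nfatc1 without the saline or the 8 h pool and Ubash3b without the 8 h pool. Of 63 other pathway genes 13 were higher and 9 lower, among them Dok2, an adaptor that restrains Ras, at 127, 201 and 241 CPM, against 48.9, 48.2 and 53.8 CPM (log2 fold change 1.87 ± 0.17), and Lax1, a Lat-like inhibitory adaptor (1.5 ± 0.14), while Cd247, the gene of the zeta chain of the receptor, was lower (-0.94 ± 0.14). Of the 14 induced genes 4 were higher and 0 lower. The gate held Tcrg-C1 and Tcrg-C2 RNA at 241 to 375 CPM, Fcer1g, shared by myeloid and natural killer cells, at 189 to 250 CPM and Ncr1, a natural killer gene, at 18.9 to 30.1 CPM, while Csf1r, Lyz2 and Trdv4 were at 0. The gamma delta list summed to 726 to 762 CPM, against 11.4 to 14.6 CPM in S100a4- CD4 cells, and the natural killer list, which holds Klrb1c, a gene that chose the cells, to 867 to 1199 CPM, against 38.9 to 46.2 CPM. The part of gamma delta or natural killer cells in the result was not tested.

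Trdc cells held more Tec, Ptpn22 and Cblb than S100a4- CD4 cells and less Cd5 and Cd6. Of the members 9 were higher and 6 lower, beside 11.5% of all genes (6.46% higher and 4.99% lower), and 8 were called without the 4 h pool. Of the 15 calls 7 held under all 11 alternatives, and that of Tec was not among them. The median log2 fold change was -0.111, against -0.006 for all genes. Cd6 stood at 49.0, 49.2 and 44.0 CPM in Trdc cells, against 104, 106 and 123 CPM (log2 fold change -1.29 ± 0.21, adjusted p = 3.17e-06). Cd5 stood at 158, 95.3 and 119 CPM, against 254, 274 and 300 CPM (-1.25 ± 0.16, adjusted p = 1.11e-08). Ptpn22 (chr3:103859795-103912247, plus strand) stood at 377, 366 and 379 CPM, against 182, 168 and 181 CPM (1.0 ± 0.11, adjusted p = 5.18e-11), with groups far apart.

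Cblb, the ubiquitin ligase that raises the threshold of activation, stood at 230, 203 and 163 CPM in Trdc cells, against 111, 111 and 106 CPM (log2 fold change 0.80 ± 0.14, adjusted p = 7.27e-06). Tec was higher by 1.29 ± 0.28 (adjusted p = 5.59e-04, and 0.0513 without the 4 h pool), Ubash3b by 0.84 ± 0.22 with overlapping groups (0.422 without the 4 h pool), Sla by 0.51 ± 0.14 (0.0958 without the 4 h and 0.0660 without the 8 h pool) and Txk by 0.56 ± 0.15. Txk stood at 90.4, 231 and 233 CPM in the saline, 4 h and 8 h pools of Trdc cells, against 119, 121 and 117 CPM, so the saline pool fell on the other side of the CD4 cells, and the call was lost without the 4 h pool (adjusted p = 0.454) or the 8 h pool (0.254). Dgka and Lat were lower (-0.72 ± 0.07 and -0.56 ± 0.10). Of 63 other pathway genes 5 were higher and 6 lower, with Spry2 at 82.9, 67.7 and 30.8 CPM, against 0.911, 0.734 and 0 CPM. Of the 14 induced genes 3 were higher and 0 lower, with Nr4a1, a nuclear receptor gene, at 154, 178 and 66.1 CPM, against 43.3, 31.6 and 32.8 CPM (log2 fold change 1.88 ± 0.26). Within this gate the natural killer list summed to 1168, 673 and 449 CPM in the saline, 4 h and 8 h pools, with Gzma at 795, 89.2 and 0 CPM, and its part in the result was not tested.

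Egr2, Egr3 and Nr4a3 are induced early by receptor stimulation, so CD4 cells other than Foxp3+ cells were also split by whether they held a molecule of any of them. The cells with one numbered 83, 77 and 91 in the saline, 4 h and 8 h pools, against 1673, 1624 and 1766 without. They held more Nfatc1, Sh2d2a, Lcp2, Ptpn6 and Cd5. Their median was 2602, 2547 and 2639 molecules, against 2432, 2376 and 2422, and the part of depth in the result was not tested. Of the members 9 were higher and 9 lower, beside 8.60% of 9071 genes tested (5.34% higher and 3.26% lower), with a median log2 fold change of -0.008 against -0.016 for all genes. Nfatc1, a transcription factor gene that the calcium signal itself induces, stood at 679, 429 and 580 CPM in cells with an Egr or Nr4a molecule, against 150, 156 and 172 CPM in cells without (log2 fold change 1.79 ± 0.12, adjusted p = 2.79e-40), while Nfatc3 was lower (-0.42 ± 0.13) and Nfatc2 did not pass the test. The Nfatc1 levels of all 3 pools with an Egr or Nr4a molecule were above every level without.

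**Figure D5:**
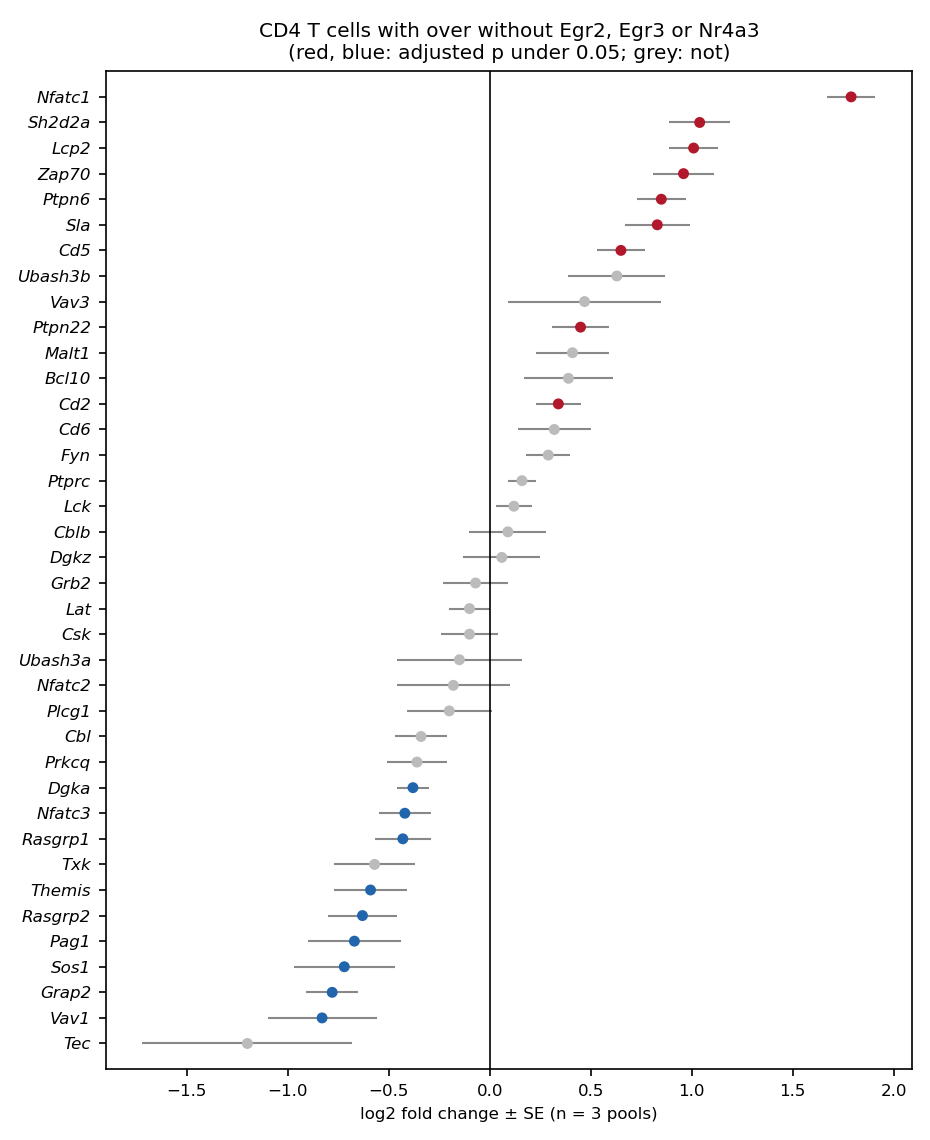
Log2 fold change with SE (edgeR, n = 3 pools) of the 38 members in CD4 cells with over those without a molecule of Egr2, Egr3 or Nr4a3, in red or blue where the adjusted p was under 0.05. Nfatc1 lies farthest to the right at 1.79, ahead of Sh2d2a, Lcp2 and Zap70 near 1.0. Among the called members Vav1 lies farthest to the left at -0.83.

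Lcp2 stood at 469, 394 and 407 CPM in cells with an Egr or Nr4a molecule, against 199, 210 and 211 CPM (log2 fold change 1.01 ± 0.12, adjusted p = 1.69e-13). Ptpn6 stood at 423, 376 and 343 CPM, against 213, 193 and 213 CPM (0.85 ± 0.12, adjusted p = 2.61e-09). Cd5 stood at 386, 474 and 445 CPM, against 250, 273 and 291 CPM (0.65 ± 0.12, adjusted p = 2.59e-06). An activating adaptor, an inhibitory phosphatase and an inhibitory receptor were higher in the same cells, each without overlap between groups. Sh2d2a was higher by 1.04 ± 0.15 (adjusted p = 1.10e-09), Zap70 by 0.96 ± 0.15 (adjusted p = 1.54e-08) and Sla by 0.83 ± 0.16 (adjusted p = 1.11e-05). Lower were Vav1 (-0.83 ± 0.27), Grap2 (-0.78 ± 0.13), Sos1 (-0.72 ± 0.25), Pag1 (-0.67 ± 0.23), Rasgrp2 (-0.63 ± 0.17) and Themis (-0.59 ± 0.18), with adjusted p between 5.11e-07 and 0.0497. Vav1, Sos1 and Pag1 each lost the call without any 1 of the 3 pools (adjusted p of Vav1 0.214, 0.0675 and 0.186 without saline, 4 h and 8 h), Rasgrp2 without 4 h (0.123) or 8 h (0.0707) and Themis without saline (0.113) or 4 h (0.245).

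Regulatory genes summed to 444, 421 and 467 CPM in cells with an Egr or Nr4a molecule, against 117, 131 and 158 CPM in those without. A molecule of one of them was found in 33.7%, 29.9% and 34.1% of cells with an Egr or Nr4a molecule, against 15.2%, 16.6% and 17.6% of those without. Without such cells 5 members were called, all of them higher: Nfatc1 (log2 fold change 1.43), Ptpn6 (0.90), Sh2d2a (0.87), Lcp2 (0.83) and Cd5 (0.80). In that fit 83 of all genes were higher and 36 lower, against 484 and 296 with all cells, the log2 fold change of Zap70 was 0.58 (adjusted p = 0.154) and that of Ptpn22 was -0.01 in place of 0.45. Vav1 (-0.80) and Sos1 (-0.61) lost the call with folds close to those with all cells, while Sla (0.35), Rasgrp2 (-0.27), Themis (-0.29) and Dgka (-0.15) came closer to 0. DESeq2 called 9 members, as 7 higher and 2 lower, and 12, 11 and 11 were called without the saline, the 4 h and the 8 h pool. Of 64 other pathway genes 13 were higher and 5 lower, among them Orai1, the calcium channel of the plasma membrane, at 239, 179 and 222 CPM, against 72.2, 74.6 and 73.6 CPM (log2 fold change 1.51 ± 0.17, adjusted p = 4.65e-16), and Dusp2, a MAP kinase phosphatase, at 1027, 1007 and 765 CPM, against 311, 271 and 280 CPM (1.66 ± 0.10). All 12 induced genes tested were higher, 3 of which chose the cells.

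Lcp2, Cd5 and Zap70 were called as higher in CD4 cells with an Egr or Nr4a molecule, Zap70 not without the cells that hold regulatory genes, and the members' promoters were searched for short motifs of factors that such stimulation engages or that act in lymphocytes. RefSeq promoter windows on GRCm38.p6, from 250 bases before to 50 bases after a start, were found for 31 of the 38 members and gave 50 windows. Both strands were searched, and overlapping matches were all kept. The NFAT core GGAAAA was in 9 of the 50 windows and in 23.4% of all 32851 windows, the ETS core GGAAGT in 21 and in 23.8%, the Egr motif GCGNGGGCG in 4 and in 5.55%, and the Nr4a motif AAAGGTCA in 1, of Zap70, and in 1.51%. The NFAT core was found for Lcp2 and Zap70, called as higher in CD4 cells with an Egr or Nr4a molecule. It was also found for Grap2, Sos1 and Dgka, called as lower there, and for Csk, Ptprc, Ubash3b and Vav3, not called. The 3 windows below were picked from members called as higher. They show 1 match each in capitals, an NFAT core in Lcp2, an ETS core in Cd5 and, at an internal start of Zap70, the Nr4a motif read from the other strand.

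Lcp2, chr11:34046678-34046977, plus strand: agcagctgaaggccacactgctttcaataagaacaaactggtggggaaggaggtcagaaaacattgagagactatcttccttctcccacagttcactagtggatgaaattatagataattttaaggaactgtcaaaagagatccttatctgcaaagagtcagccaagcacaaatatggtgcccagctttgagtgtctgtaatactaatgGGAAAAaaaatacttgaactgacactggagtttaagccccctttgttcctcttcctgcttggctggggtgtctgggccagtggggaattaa
Cd5, chr19:10738925-10739224, minus strand: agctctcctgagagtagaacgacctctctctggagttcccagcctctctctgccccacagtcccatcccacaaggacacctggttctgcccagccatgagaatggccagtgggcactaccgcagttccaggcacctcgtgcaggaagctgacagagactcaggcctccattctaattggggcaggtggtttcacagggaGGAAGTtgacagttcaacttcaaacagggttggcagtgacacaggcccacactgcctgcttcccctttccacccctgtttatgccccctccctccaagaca
Zap70, chr1:36778734-36779033, plus strand: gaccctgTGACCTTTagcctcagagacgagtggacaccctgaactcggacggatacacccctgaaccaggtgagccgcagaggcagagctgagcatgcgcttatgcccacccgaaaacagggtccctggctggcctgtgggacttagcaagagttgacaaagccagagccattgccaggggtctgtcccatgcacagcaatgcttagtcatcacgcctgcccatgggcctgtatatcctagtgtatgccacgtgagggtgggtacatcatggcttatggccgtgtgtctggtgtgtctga

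A match is a run of letters and not evidence of binding, and no match says only that these letters are not in the window. In GENCODE M21 the whole gene of Lcp2 is chr11:34046920-34092295 and that of Zap70 chr1:36761798-36782818, both on the plus strand and protein-coding. Beside Sla, members that overlap another counted gene on the opposite strand include Dgka with Pmel, Plcg1 with Zhx3, Sos1 with Arhgef33 and Nfatc3 with Esrp2, and the sources used here do not give whether the counting was by strand.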

How the data were processed

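The authors processed a single BD Rhapsody capture with the BD WTA Multiplex Rhapsody Analysis Pipeline, version 1.9.1, on GRCm38 with GENCODE M19, per the file headers. The deposited values are counts of unique molecules per cell and gene, corrected for sequence errors by the authors' pipeline, for 17299 putative cells. Sample tags 8, 10 and 9 marked the saline, 4 h and 8 h pools, per the labels. The labels describe the sort both by CD45, CD3 and CD5 and by CD45 alone.

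From these counts, cells with 1 of those tags, at least 200 genes and at most 25% mitochondrial molecules were kept. T cells held a molecule of Cd3d, Cd3e, Cd3g, Trac, Trbc1 or Trbc2 and none of a set of B cell and myeloid genes that included Ms4a1, Cd79a, Lyz2 and S100a8. B cells held Cd79a with at least 1 further B cell gene of that set and none of Cd3d, Cd3e, Cd3g or Trac. No doublet caller was run within a pool. Cells for shares were reduced at random to 1000 molecules, and 21, 27 and 35 shallower T cells of the saline, 4 h and 8 h pools were left out. Pools were compared as ratios of CPM with exact conditional binomial 95% intervals (scipy 1.17.1). Intervals cover counting error only. Gates were compared with edgeR 4.0.16 in R 4.3.3 (quasi-likelihood test, TMM scaling, filterByExpr, Benjamini-Hochberg adjustment), with the pool as a block because both gates come from the same mice. DESeq2 1.42.0 was an alternative.

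The 38 members, the gates and the lists of other pathway genes, induced genes and markers were chosen with earlier results of these data known. Members past the 1.2-fold rule, or past an adjusted p of 0.05 with an absolute log2 fold change of at least 0.5, were named, with the genes that head each role and their family members, and for other pathway genes up to 4 per direction. Some genes of these sets are not reported here. Promoter sequences are from RefSeq on GRCm38.p6. Coordinates are from GENCODE M21 on the same build.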

Additional observations from a re-analysis of the deposited data

Results flagged for a closer look

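The ratio of 4 h over saline lay on opposite sides of 1 in different gates for Sos1 and Pag1, past 1.2-fold each way and with both intervals apart from 1. The difference between gates was not tested. No other such pair was found among the 265 ratios of a member in a gate at 4 h over saline, 265 at 8 h over saline and 266 at 8 h over 4 h. Among these ratios, intervals without 1 lay above 1 in 7, 9 and 15 cases and below 1 in 17, 15 and 8, in that order. How often such a pair arises over all genes was not counted. Sos1 stood at 86.7 CPM at 4 h, against 71.5 CPM in saline, in S100a4- CD4 cells, a ratio of 1.21 (1.04 to 1.42). In Ccl5+ CD8 cells it stood at 49.8 CPM at 4 h, against 76.9 CPM in saline, a ratio of 0.648 (0.437 to 0.954). Pag1 stood at 68.3 CPM at 4 h, from 44 molecules, against 34.3 CPM in saline, from 18 molecules, in Foxp3+ cells, a ratio of 1.99 (1.13 to 3.66). In Trdc cells it stood at 52.3 CPM at 4 h, from 17 molecules, against 105 CPM in saline, from 28 molecules, a ratio of 0.496 (0.254 to 0.937).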

How the results depend on the processing

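Each of the 114 time ratios of a member stayed inside its counting interval under 7 other settings (TMM scaling, 2 other minimums of molecules, a stricter cell filter, equal weight of cells, a fixed mix of gates and removal of the 3% of cells with most molecules). The counts of members past the fold moved more. At 4 h 1 member was counted at 1.3-fold. At 8 h 0 were counted with the stricter cell filter, the fixed mix of gates, without the top 3% of cells and at 1.3-fold, and 3 at 1.1-fold. At 8 h over 4 h the count was 1 with equal weight of cells and 2 at 1.1-fold. The shares of cells moved with the reduction to 1000 molecules in 114 of 114 cases. With 1 pool per treatment, no setting measures the spread between mice.

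Of 122 member calls between gates, 98 kept direction and threshold with DESeq2, 109 with plain library sizes, 106 without the filter on low counts, 118 with the stricter cell filter, 101 with gates set at 2 molecules and 106 without the top 3% of cells. Without the replicate block 118 did, and 20, 14, 18, 18, 19, 14 and 17 members were called, in the order of the report. Without 1 pool the counts were 16 to 18 in Foxp3+ cells, 10 in each case in S100a4+ CD4 cells, 13 to 16 in Ccl5- CD8 cells, 13 to 15 in Ccl5+ CD8 cells, 13 to 16 in cells with Zbtb16 or Klrb1c, 8 to 13 in Trdc cells and 11 to 12 in cells with an Egr or Nr4a molecule. In that last contrast DESeq2 called 9. Without cells that hold regulatory genes, chosen after seeing the data, it had 5 calls, and the S100a4+ contrast 6. Ptpn22 in cells with an Egr or Nr4a molecule was then at -0.01 on the log2 scale, a reversal of sign, and the cause was not tested. Under all 11 alternatives 6 of 13 calls held in S100a4+ CD4 cells and 11 of 19 in cells with Zbtb16 or Klrb1c. In Trdc cells 7 of 15 held, and in cells with an Egr or Nr4a molecule 5 of 18.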
